A study of Caenorhabditis elegans with 2 samples.

Results

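Propionate is broken down in *C. elegans* by a pair of routes, and the 10 genes described here are the 5 of the propionate shunt (in the order of its steps *acdh-1*, *ech-6* and *hach-1*, then *hphd-1*, with *alh-8* last) and 5 of the canonical vitamin B12-dependent route (*pcca-1*, *pccb-1*, *mce-1*, *mmcm-1* and *mmaa-1*). They were found by gene symbol among the 18510 genes of the deposited data, and all 10 were present with reads in both libraries. With 2 mM AbaPep#07, 4 of the 5 shunt genes were more than 2-fold above Control in FPKM, as were 3.27% of all 14119 genes with enough reads to compare, whereas the B12-dependent genes differed by 12% at most in reads.

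RNA of whole wild-type N2 nematodes was sequenced in 2 libraries, both collected at Day 10 of adulthood. The Control library came from untreated nematodes, and the AbaPep#07 library from nematodes given 2 mM of this synthetic abalone peptide from L4, the last larval stage. The sequencing methods do not give the medium or food of these cultures. Liquid cultures in the study used S medium with *E. coli* NA22, and its survival, life span and paralysis assays added the drug FUDR. Its N2 nematodes for motility at Day 10 were kept in the plate format of the paralysis assays. Whether FUDR was present here is not given. Neither culture carried a mutation or transgene. How many animals were pooled is not given in the sources used here. With 1 library per condition, no difference below has a replicate check within the sequencing data. Apart from the sequencing, the study ran quantitative PCR on biological repeats of nematodes treated in the same way. By that PCR the study describes the transcripts of *acdh-1* and *hphd-1* as increased by the peptide. The PCR measurements were not analysed here.

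Propionate, a short-chain fatty acid, arises in the cell as propionyl-CoA when valine, isoleucine, methionine and odd-chain fatty acids are degraded. In the canonical route propionyl-CoA is carboxylated and rearranged to succinyl-CoA, and the last enzyme needs vitamin B12 as its cofactor. In the shunt, known from nematodes grown on a diet poor in B12, propionyl-CoA is oxidised step by step to malonic semialdehyde and then to acetyl-CoA. Persistent propionate switches the shunt on through the nuclear hormone receptors NHR-10 and NHR-68.

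The estimated reads summed to 19409907 in Control and 19241145 with AbaPep#07. A ratio below is the AbaPep#07 value over the Control value, each read count being divided by its library total, and the 95% interval beside it is an exact (Clopper-Pearson) interval from the split of the reads. Such intervals cover counting error only, not variation between cultures, and copies of a molecule made by PCR were not told apart. TPM and FPKM are scaled by transcript length as well as depth, so levels of different genes are compared in TPM. The 14119 genes that were compared had 20 reads or more when both libraries are summed, and their median log2 FPKM ratio was -0.03, and the 5th and 95th percentiles were -0.69 and 0.82. In RNA of whole nematodes, more cells of a type and more RNA per cell cannot be told apart.

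The first shunt enzyme, the acyl-CoA dehydrogenase encoded by *acdh-1* (chromosome I, 6497436 to 6499560, plus strand, 7 exons in its longest transcript), turns propionyl-CoA into acrylyl-CoA. Its level was 0.56 TPM in Control and 322 TPM with AbaPep#07. These levels rested on 19.3 and 7233 estimated reads, a ratio of 379 (246 to 638). In Control, 23.0% of all genes had a lower level, and with AbaPep#07 97.8% did. Its log2 FPKM ratio of 9.10 was first in rank among the 14119 genes.

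Hydration of acrylyl-CoA is the step of the enoyl-CoA hydratase gene *ech-6* (chromosome III, 9751552 to 9752883, minus strand, 4 exons). It had 68.5 TPM in Control and 237 TPM with AbaPep#07, from 1400 and 4651 reads, and the ratio was 3.35 (3.16 to 3.56). The hydrolase gene *hach-1* (chromosome III, 5555450 to 5557318, plus strand, 5 exons) encodes the enzyme that then removes CoA and releases free hydroxypropionate. Its level was 58.9 TPM in Control and 209 TPM with AbaPep#07, from 1520 and 5130 reads, and the ratio was 3.40 (3.21 to 3.61). The intervals of *ech-6* and *hach-1* overlapped, so counting error alone covers the difference between these consecutive steps, with the reads as they were divided among genes. In the order of FPKM ratios the genes stood at ranks 82 and 75.

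Oxidation of hydroxypropionate to malonic semialdehyde is carried out by the transhydrogenase HPHD-1, which hands the electrons to 2-oxoglutarate and so forms 2-hydroxyglutarate. The gene *hphd-1* (chromosome II, 12994354 to 12996571, minus strand, 8 exons in its longest transcript) had 15.1 TPM in Control and 212 TPM with AbaPep#07. The reads were 471 and 6330, with a ratio of 13.6 (12.3 to 14.9), above the intervals of *ech-6* and *hach-1* and below that of *acdh-1*. Its rank among all genes was 12.

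The last shunt gene, *alh-8* (chromosome II, 11729055 to 11731198, plus strand, 6 exons), encodes a semialdehyde dehydrogenase that also serves valine breakdown. With the reads as they were divided among genes, it was the most abundant member in both libraries, with 875 TPM in Control and 1088 TPM with AbaPep#07. The reads were 30680 and 36504, a ratio of 1.2003 (1.18 to 1.22) that counting error does not cover. It was short of 2-fold, and 22.6% of genes had a higher FPKM ratio.

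**Figure D1:**
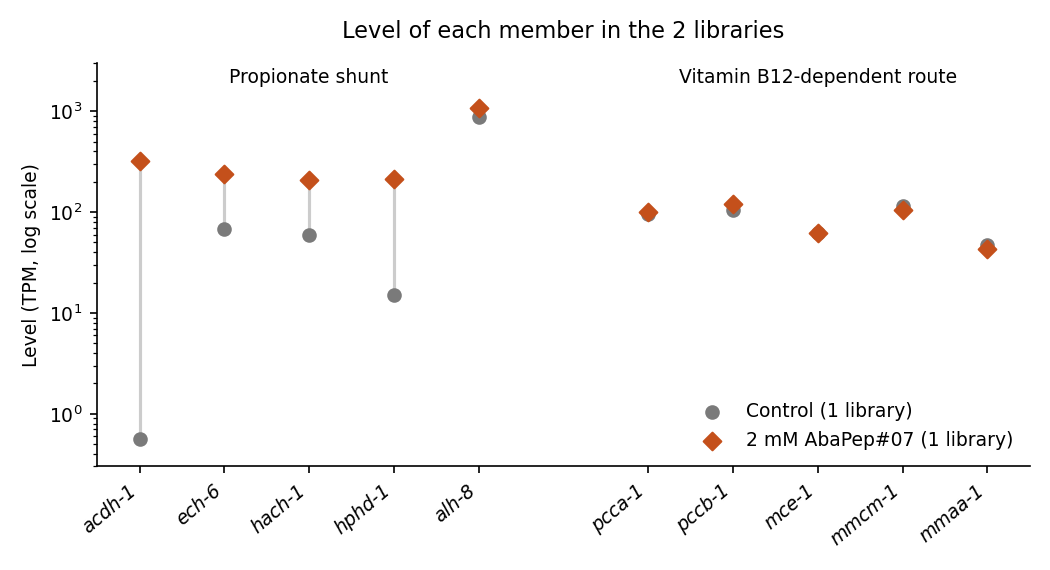
Level of the 10 members in TPM on a log axis, with 1 point per library (grey circles Control, orange diamonds AbaPep#07) and a line joining the points of a gene. The first 4 shunt genes lie between 0.56 and 68.5 TPM in Control and between 209 and 322 TPM with AbaPep#07, while the points of the B12-dependent genes almost coincide.

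In the B12-dependent route, propionyl-CoA carboxylase is built from an alpha subunit, which carries biotin, and a beta subunit. The alpha subunit gene *pcca-1* (chromosome X, 7657542 to 7660986, minus strand, 7 exons) had 95.2 TPM in Control and 101 TPM with AbaPep#07. Its reads were 4958 and 5013 and the ratio 1.02 (0.981 to 1.06), a difference covered by counting error. The beta subunit gene *pccb-1* (chromosome X, 3089549 to 3092437, plus strand, 4 exons) had 105 and 121 TPM. Its reads were 3888 and 4268 and the ratio 1.11 (1.06 to 1.16). The beta to alpha ratio in TPM was thus 1.11 in Control and 1.201 with AbaPep#07.

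Methylmalonyl-CoA epimerase, the next enzyme, is encoded by *mce-1* (chromosome I, 7582106 to 7583333, plus strand, 3 exons). It had 61.6 TPM in Control and 62.3 TPM with AbaPep#07, from 777 and 762 reads. The ratio was 0.989 (0.894 to 1.09), and its direction depended on the unit, being 0.971 by FPKM and 1.01 by TPM. The mutase gene *mmcm-1* (chromosome III, 3903185 to 3907687, minus strand, 6 exons) encodes the enzyme that uses adenosylcobalamin, a form of B12. It was at 115 TPM in Control and 106 TPM with AbaPep#07, from 6285 and 5522 reads, a ratio of 0.886 (0.855 to 0.919). The GTPase gene *mmaa-1* (chromosome II, 7099583 to 7101165, minus strand, 3 exons in its longest transcript) encodes a chaperone that keeps the mutase supplied with its cofactor. Its level was 47.3 and 43.2 TPM, from 1288 and 1129 reads, and the ratio was 0.884 (0.816 to 0.959). The mutase and its chaperone were therefore lower by nearly the same share, and the *mmaa-1* to *mmcm-1* ratio in TPM was 0.410 in Control and 0.408 with AbaPep#07. Changes of this size were common, as 55.2% of genes had a larger log2 FPKM ratio, in either direction, than *mmcm-1* and 53.2% than *mmaa-1*.

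The calls follow the thresholds of the study's methods, an FDR no higher than 0.05 in the PossionDis comparison and FPKM values that differ 2-fold or more. The comparison takes the reads of each gene as Poisson counts and was recomputed over all 18510 genes, so it compares these 2 libraries and not the conditions. By it *acdh-1*, *ech-6*, *hach-1* and *hphd-1*, which is 4 of the 10 members, were called higher with AbaPep#07, and 0 were called lower. Over all 18510 genes 2.10% of genes were called higher and 1.43% lower. The shunt genes had been singled out by the study from these same libraries, and their calls are not independent evidence of a direction. Past the FDR threshold without the fold were *alh-8*, *pccb-1*, *mmcm-1* and *mmaa-1*, as the FDR threshold alone was passed by 25.5% of all genes. That share includes genes with few reads, for which the threshold is harder to pass. It is therefore no matched background for genes with many reads. Only *acdh-1* was called when edgeR's exact test was run on the assumption that cultures vary with a coefficient of 0.4, whereas all 4 were called with 0.1 or 0.2. With 1 FPKM added to both values the ratio of *acdh-1* was 223.

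**Figure D2:**
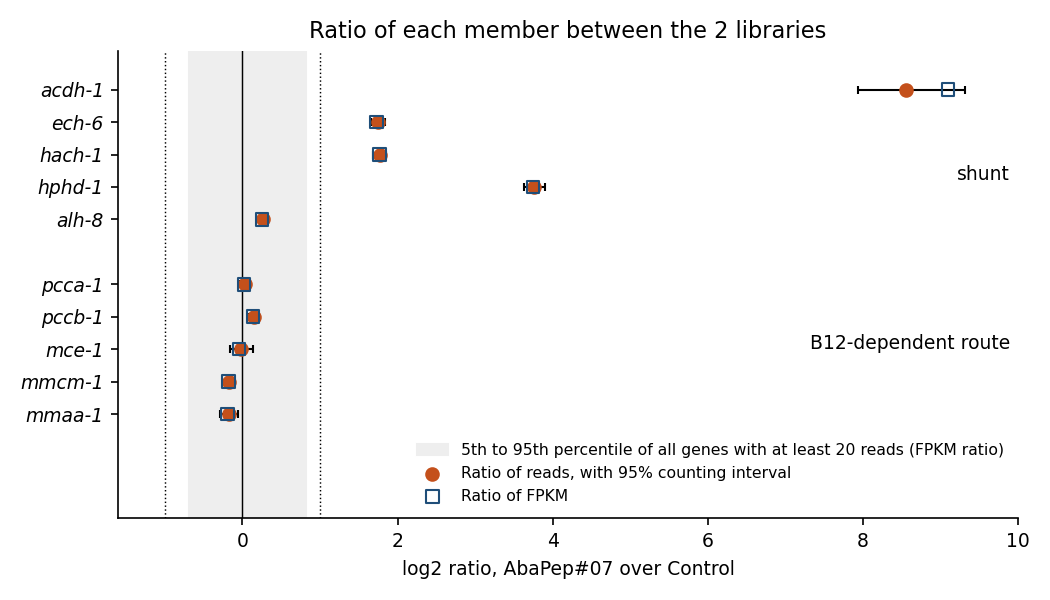
Log2 ratio of AbaPep#07 over Control for the 10 members, from reads (filled circles, with 95% counting intervals) and from FPKM (open squares). The grey band runs from -0.69 to 0.82, the 5th to the 95th percentile of the FPKM ratios of 14119 genes, and dotted lines mark 2-fold. Outside the band lie *acdh-1*, *ech-6*, *hach-1* and *hphd-1*.

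Taken as routes, the shunt genes had a median log2 FPKM ratio of 1.76 and a range from 0.25 to 9.10, with 5 of 5 above 0. The B12-dependent genes had a median of -0.04 and a range from -0.19 to 0.14, with 2 above and 3 below 0. All 14119 genes together had 44.7% above 0, and 57.0% lay within 0.25 of 0, as did 5 of the 5 B12-dependent genes. The median of the B12-dependent genes was 0.02 by TPM, so its sign is not fixed by these data. Without *acdh-1* the shunt median was 1.75.

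The summed level of the shunt was 1019 TPM in Control and 2066 TPM with AbaPep#07, a ratio of 2.03. Most of it was *alh-8*, at 86.0% of the sum in Control and 52.6% with AbaPep#07. Without *alh-8* the shunt summed to 143 and 978 TPM, a ratio of 6.84. The B12-dependent route summed to 425 and 433 TPM, a ratio of 1.02. Relative to the B12-dependent route, the 4 shunt genes without *alh-8* were thus at 0.337 of its summed TPM in Control and at 2.26 of it with AbaPep#07. In these sums *acdh-1* had 0.56 TPM in Control and 322 TPM with AbaPep#07, on reads divided with its neighbour C55B7.3 (below). Sums under another division were not tested.

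The order of the levels changed between the libraries. In Control *alh-8* was followed by *mmcm-1*, *pccb-1*, *pcca-1*, *ech-6*, *mce-1*, *hach-1*, *mmaa-1*, *hphd-1* and *acdh-1*, so that both routes were interleaved. With AbaPep#07 all 5 shunt genes, from 209 TPM upwards, were above all 5 B12-dependent genes, from 121 TPM downwards. With the reads as they were divided among genes, the shunt genes had also become more alike in level. The highest of the 4 genes without *alh-8* was 122 times the lowest in Control, and 1.54 times with AbaPep#07. For *ech-6*, *hach-1* and *hphd-1* alone the numbers were 4.54 and 1.13. The 1.54 has *acdh-1* as its highest gene, and the reads of *acdh-1* were divided with its neighbour C55B7.3 (below). Summed, these 2 genes had 1.46 TPM in Control and 827 TPM with AbaPep#07. Levels under another division of the reads were not tested. Among B12-dependent genes the highest level was 2.44 times the lowest in Control and 2.80 times with AbaPep#07. The lower a shunt gene was in Control, the larger was its ratio, a relation over 5 genes that share both libraries and that is given as a description.

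The values of *acdh-1*, *ech-6* and *mmaa-1* have a limit, as their estimated reads are not whole and a neighbouring gene on the same strand has the fractions that complete them, to within 0.015 reads. For *acdh-1* the neighbour is C55B7.3, annotated as a tyrosine-protein phosphatase, which begins 421 nt downstream on the same strand (chromosome I, 6499982 to 6501410). C55B7.3 had 51.7 and 27775 reads, or 0.90 and 505 TPM, and a ratio by reads of 542 (411 to 722). The reads of both genes sum to 71 in Control and to 35008 with AbaPep#07. Of these reads 27.1% in Control and 20.7% with AbaPep#07 were assigned to *acdh-1*. Counted as 1 gene, the pair had a ratio of 497 (394 to 637). That sum is the same under any division, and how many of its reads came from *acdh-1* itself was not tested.

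For *ech-6* the neighbour is T05G5.5, with 1051 and 1040 reads, a ratio of 0.998 (0.915 to 1.09). Together they had 2451 and 5691 reads and a ratio of 2.34 (2.23 to 2.46), in place of 3.35 for *ech-6* alone. The share assigned to *ech-6* was 57.1% in Control and 81.7% with AbaPep#07. For *mmaa-1* the neighbour is *farl-11*, with 3650 and 3225 reads, a ratio of 0.891 (0.850 to 0.935). Here the pair, with 4938 and 4354 reads, had a ratio of 0.889 (0.854 to 0.927), next to 0.884 for *mmaa-1* alone. The other 7 members had whole numbers of reads in both libraries.

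The lengths behind the FPKM values were compared as well. Dividing the reads of a gene by its FPKM and the library total gives the transcript length used, less the part too close to an end to start a fragment. For C55B7.3 it was 2445 nt in Control and 2463 nt with AbaPep#07, although its longest annotated transcript in Ensembl release 115 has 1139 nt. The longest transcripts of *acdh-1* and C55B7.3 together have 2536 nt. Among 10396 genes with at least 50 reads and 1 FPKM in each library, the implied length was 0.802 of the annotated length at the median, and 1.84% of genes had a larger share than the 2.16 of C55B7.3. Whether the gene model used for C55B7.3 contained exons of *acdh-1* was not tested. For *acdh-1* the implied length was 1460 nt in Control and 1008 nt with AbaPep#07, so that reads gave a ratio of 379 and FPKM a ratio of 548.5. Of the 10396 genes, 0.452% changed in implied length by more than that. With 19.3 reads and 0.68 FPKM in Control, *acdh-1* itself was below the minimum for those genes. The share therefore does not describe genes with as few reads. The implied lengths of the other 9 members differed by less than 2% between the libraries, and their ratios by reads and FPKM by less than 2% as well.

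**Figure D3:**
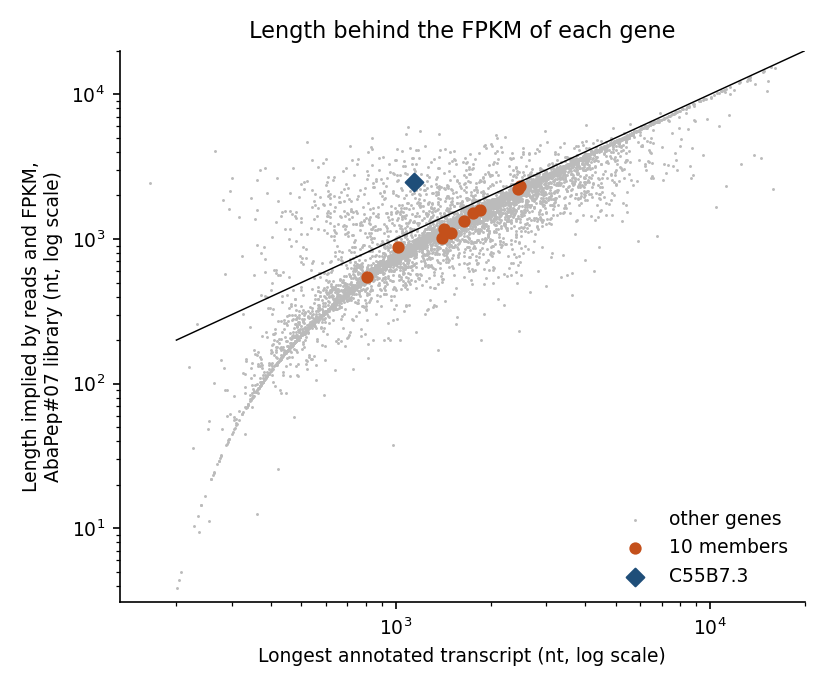
Length implied by reads and FPKM in the AbaPep#07 library against the longest annotated transcript, both in nt on log axes, for 10396 genes (grey), the 10 members (orange) and C55B7.3 (blue diamond), with the line of equal lengths. All members lie below the line, and C55B7.3 lies above it at 2463 against 1139 nt.

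Genes next to the members on the chromosomes were compared to see whether a ratio was shared along the DNA. The 10 members have 20 neighbouring protein-coding genes in the RefSeq annotation of WBcel235, all of them among the measured genes. Over all genes 3.53% were called in either direction. Called higher were C55B7.3 and *cyd-1* (354 and 754 reads), which encodes a cyclin and lies 1244 nt from *hphd-1* on the other strand. Called lower was *wrt-2* (63 and 22 reads), a hedgehog-related gene whose end overlaps that of *pccb-1* by 43 nt on the other strand. F13D12.8 likewise overlaps *alh-8* by 34 nt. Whether the counting used strand is not given in the sources used here, and with 88 reads or fewer in each library these neighbours have few reads beside those of *pccb-1* and *alh-8*. The closest same-strand neighbour of *hach-1* is *rpc-2* at 46 nt, with whole reads and a log2 FPKM ratio of 0.04. At 52 nt from *mmaa-1*, *farl-11* had a log2 FPKM ratio of -0.20, on reads divided with *mmaa-1*. The 3 neighbours called were named after their values were seen.

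Of 4 regulators, *nhr-68* was called higher and the other 3 were not called, where 2.10% of all genes were called higher. The study had named *nhr-68* as upregulated from these same libraries, so its call is not independent evidence. This receptor gene had 145 and 776 reads, and 5.66 and 31.5 TPM, a ratio of 5.40 (4.52 to 6.49). The gene of its partner NHR-10 had 607 and 624 reads, with a ratio of 1.04 (0.926 to 1.16). For *nhr-114*, a receptor that acts on the methionine cycle branch of the B12 response, the reads were 95 and 127 and the ratio 1.35 (1.03 to 1.78), while its FPKM ratio was 1.05. The Mediator subunit gene *mdt-15*, a co-activator of lipid metabolism genes, had 4654 and 4516 reads and a ratio of 0.979 (0.939 to 1.02).

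Among genes that handle B12, or use it in the methionine cycle, 1 of the 7 measured was called higher and 0 lower, against 2.10% and 1.43% of all genes. With that gene, 4 of the 7 passed the FDR threshold, as did 25.5% of all genes, including genes with few reads. The called gene was *pmp-5*, an ABC transporter gene of the family of human ABCD4, which carries B12 out of lysosomes. It had 7.16 and 21.4 TPM, from 273 and 779 reads, and a ratio of 2.88 (2.50 to 3.32). The largest difference in the other direction was that of *metr-1*, which encodes methionine synthase, the other B12-dependent enzyme. Its reads were 4981 and 3289 and its ratio 0.666 (0.637 to 0.696), short of 2-fold. The gene of its reductase, *mtrr-1*, had 1350 and 1328 reads and a ratio of 0.992 (0.919 to 1.07). The adenosyltransferase gene *mmab-1*, which makes the cofactor of the mutase, had 1226 and 1185 reads and a ratio of 0.975 (0.899 to 1.06). The ratios of *cblc-1* and *mmad-1*, whose human relatives process B12 after uptake, were 0.937 (0.833 to 1.05) and 0.890 (0.849 to 0.934). The transporter gene *mrp-5*, needed for passing B12 from the intestine to embryos, had 4778 and 5611 reads and a ratio of 1.18 (1.14 to 1.23). The median log2 FPKM ratio of the 7 genes was -0.04, next to -0.03 for all genes.

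Breakdown of valine and isoleucine lies upstream of both routes. In a list of 12 genes of branched-chain amino acid breakdown, not all of them on those branches, 0 were called in either direction. With 3.53% of all genes called, a list of this size need not hold any. The FDR threshold alone was passed by 6 of the 12 genes, 4 higher and 2 lower in FPKM, and by 25.5% of all genes. That last share includes genes with few reads. Among the 6, *acdh-9*, an acyl-CoA dehydrogenase gene, had 1271 and 2065 reads and a ratio of 1.64 (1.53 to 1.76). Of the lower ones, *ard-1* was lower only in FPKM, with a ratio of 0.741. Its reads, on which the FDR rests, were 2363 and 2571, a ratio of 1.10 (1.04 to 1.16). The median log2 FPKM ratio of the list was -0.00018, with 6 above and 6 below 0. In the enzyme families of the shunt, 2 of 33 other genes were called, which is 6.06%, against 3.53% of all genes. Of the other 12 acyl-CoA dehydrogenase genes (*acdh-*), *acdh-2* was called higher, from 28 and 66 reads with a ratio of 2.38 (1.51 to 3.84). Lower past 2-fold but not called was *acdh-6*, with 25 and 11 reads, as 2.34% of all 14119 genes were lower past 2-fold. Of the other 9 enoyl-CoA hydratase genes (*ech-*), *ech-9* was called higher, from 15 and 90 reads with a ratio of 6.05 (3.48 to 11.3). None of the other 12 aldehyde dehydrogenase genes (*alh-*) was called. The study had named *acdh-2* and *ech-9* as increased from these same libraries, so their calls are not independent evidence. The family medians were 0.06, 0.03 and 0.04, and the genes *acdh-3* and *acdh-9* stand both in the family and in the amino acid list.

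**Figure D4:**
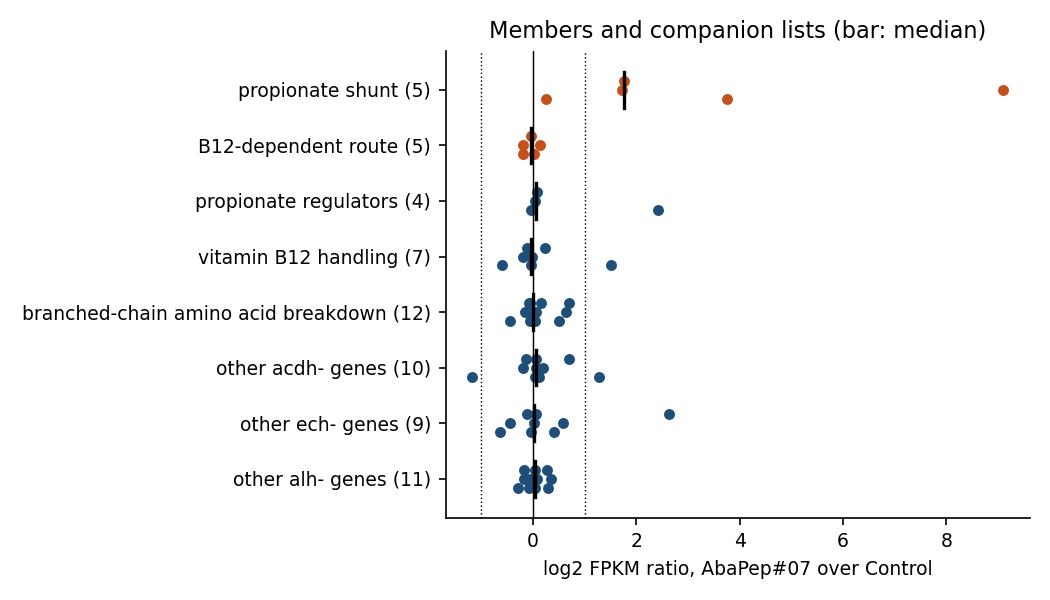
Log2 FPKM ratio of AbaPep#07 over Control for the genes of each list that had 20 reads or more in all, with the number of genes in parentheses, black bars at the medians and dotted lines at 2-fold. The shunt median is at 1.76, and the medians of the other 7 lists lie between -0.04 and 0.06.

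The genes nearest to *acdh-1* in log2 read ratio, among genes with at least 100 reads, were C55B7.3, *vmo-1*, *folt-2*, C23H5.8 and T05E12.6. Only C55B7.3 was close, at a distance of 0.52 on the log2 scale, and the next was at 1.54. The folate transporter gene *folt-2*, at 2.01, had 41 and 3834 reads and a ratio of 94.3 (69.4 to 132). Nearest to *hphd-1* was *dhgd-1*, listed as F54D5.12, which encodes the dehydrogenase that removes 2-hydroxyglutarate, the by-product of HPHD-1. It had 86.3 and 1338 reads, or 2.97 and 47.9 TPM, and a ratio of 15.6 (12.6 to 19.8). The distance to *hphd-1* was 0.21, and the others were *clec-43* at 0.25, *sysm-1* at 0.71, C24B9.3 at 0.73 and *mbug-1* at 0.76. The measure is the ratio between 2 libraries, so likeness here means a ratio of similar size and no more.

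Markers of tissues were counted beside these results. All 26 markers of intestine, epidermis, body wall muscle, neurons, germ line and oocytes had reads in both libraries. The 6 intestinal markers summed to 391 TPM in Control and 524 TPM with AbaPep#07, a ratio of 1.34. Of these sums, 108 and 244 TPM came from the microvillar actin gene *act-5* (2653 and 5757 reads). Of the 26 markers, *act-5* alone was called higher and 0 were called lower, against 2.10% and 1.43% of all genes. The log2 FPKM ratios of the intestinal markers ran from -0.29 to 1.12, with 3 above and 3 below 0. The 4 epidermal markers summed to 208 and 194 TPM, with a ratio of 0.929. The 4 markers of body wall muscle had a ratio of 0.948 in summed TPM and the 4 of neurons 1.05. Both germ line and oocyte markers were lower in 4 of 4 genes, with sums of 454 and 366 TPM (ratio 0.806) and of 674 and 581 TPM (ratio 0.862). Their log2 FPKM ratios ran from -0.43 to -0.17, within the 5th to 95th percentiles of all genes, -0.69 to 0.82. Of all 14119 genes, 44.7% were above 0. The part of tissue make-up in the results was not tested.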

How the data were processed

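RNA-seq was performed on 2 libraries of whole nematodes (BGISEQ-500), 1 per condition, grouped by the treatment in the sample labels. According to the methods, the authors used SOAPnuke for quality control, Bowtie2 (v2.2.5) for alignment to coding genes and RSEM (v1.2.12) for expression, and RSEM divides reads among similar genes. HISAT2 (v2.0.4) served the alignment to the genome, WBcel235. The deposited estimated counts are not normalized. The deposited FPKM and TPM values were made by the authors and are rounded to 2 decimals. The log2 ratio, p-value and FDR score columns deposited by the authors hold their own comparison and were not used. In all, 0 other columns of values were left unused.

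PossionDis was recomputed on reads rounded down, doubling the smaller tail (the lower one includes the observed count), with Benjamini-Hochberg adjustment over 18510 genes. An FPKM of 0 was set to 0.01. Intervals used reads rounded to the nearest whole number. The quasi-likelihood test of edgeR needs replicates and could not be fitted. Its exact test was run with assumed coefficients of variation of 0.1, 0.2 and 0.4 as alternatives. Scaling factors came from R 4.3.3 with DESeq2 1.42.0 and edgeR 4.0.16, with TMM factors of 1.004 and 0.996 and the same DESeq2 size factors. The rest used Python 3.11.15, numpy 2.4.6, pandas 2.3.3, scipy 1.17.1 and matplotlib 3.10.9. The call and interval code was tested on simulated data.

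The members, lists and tests were chosen with earlier results of these data known. Named were the 10 members, C55B7.3, all regulators and B12 handling genes, genes of the other lists past 2-fold with at least 20 reads, and the 5 genes nearest to *acdh-1* and to *hphd-1* in read ratio among genes with at least 100 reads. Other names were added after their values were seen. Positions and transcripts came from Ensembl release 115, neighbours and the names *dhgd-1*, *mbug-1*, *mmad-1* and *mccc-2* from RefSeq (both WBcel235). The listed gene *lmbd-1* was not matched and was not analysed here. No nucleotide or protein sequence was used.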

Additional observations from a re-analysis of the deposited data

How the results depend on the processing

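With 1 library per condition no replicate could be left out, and no paired analysis was possible because each condition has a single library. Of 53 values of the members' ratios under other units and scalings or with a neighbour's reads added, 49 lay within the counting interval of the main value and 0 of the called ratios changed direction. The exceptions were *acdh-1* with 1 FPKM added (223), *ech-6* counted with T05G5.5 (2.34, tried after seeing the data), and by TPM *alh-8* (1.24) and *mmcm-1* (0.920). TPM raised the median log2 ratio of all genes from -0.03 to 0.03. The shunt median stayed between 1.75 (without *acdh-1*, also tried after seeing the data) and 1.82, and that of the B12-dependent route between -0.04 and 0.02. The summed shunt ratio of 2.03 by TPM was 1.95 by FPKM, 1.71 without *acdh-1* and, in an alternative chosen after seeing the data, 6.84 without *alh-8*. The B12-dependent sum was 1.02 by TPM and 0.978 by FPKM.

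Calls over all genes were 388 higher and 265 lower. With 1 FPKM added they were 182 and 136. By edgeR's exact test with an assumed coefficient of variation of 0.1 they were 219 and 144, with 0.2 they were 50 and 40, and with 0.4 they were 6 and 1. Of the members 4 were called higher under each of these alternatives except the last, where 1 was, and the edgeR FDR of *hphd-1* was then 0.102. With 1 FPKM added, 0 of the other *acdh-* genes were called. The variation between cultures is not measured by these libraries, and it decides how many calls remain.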

Other observations

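KEGG pathway lists come with the deposited annotation and were taken up after values had been seen. KEGG propanoate metabolism holds 31 genes of the table, 7 of them members. Of the other 24 genes 0 were called, and their median log2 FPKM ratio was 0.09, where that of all genes with at least 20 reads was -0.03. Past the FDR threshold but short of 2-fold were 8 higher and 4 lower genes, so that 12 of 24 passed the FDR threshold, against 25.5% of all genes. The 24 genes all had at least 20 reads, whereas the 25.5% includes genes with fewer, so these shares are not on a matched background. Calls by FDR and fold covered 3.53% of all genes. The acetyl-CoA synthetase gene *acs-19*, whose enzyme makes the product of the shunt from acetate, was among the lower ones, with 39543 and 29391 reads and a ratio of 0.750 (0.739 to 0.761). On the higher side the acyl-CoA oxidase gene *acox-1.5* had 1064 and 2005 reads and a ratio of 1.90 (1.76 to 2.05).

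KEGG valine, leucine and isoleucine degradation holds 52 genes of the table, 8 of them members. Of the other 44 genes, 42 had at least 20 reads. Called higher was *ech-9*, 2.27% of the 44, and 0 were called lower, against 2.10% and 1.43% of all genes. The FDR threshold was passed by 21 of the 44, against 25.5% of all genes, a share that again includes genes with few reads. The median log2 FPKM ratio of the 42 was 0.06, with 28 genes above and 14 below 0. The hydroxyacyl-CoA dehydrogenase gene *hacd-1* was the lowest of the 42, with 9641 and 6231 reads. The aminotransferase gene *bcat-1*, which starts the breakdown of branched-chain amino acids, had 2666 and 4154 reads and a ratio of 1.57 (1.497 to 1.65).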
